A study of Homo sapiens with 9 samples.

Results

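Matrix metalloproteinases cut collagens and other proteins of the extracellular matrix, tissue inhibitors of metalloproteinases (TIMPs) block them, and matricellular proteins are secreted into the matrix and signal to cells through surface receptors. The genes described here are the proteases MMP1 and MMP19, the inhibitors TIMP1 and TIMP2, and the matricellular proteins THBS1 (thrombospondin-1) and SPP1 (osteopontin), taken by gene symbol from the annotation of the array. These 6 genes have 1 row each in the value table, out of 53617 rows and 14884 named genes. They were chosen by their measured log2 differences between drug and vehicle arrays, so the differences below describe them and are no independent evidence, and the calls beside them carry no further weight.

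The cells were THP-1, an established human monocytic leukaemia line, turned into an M0 macrophage-like state with the phorbol ester PMA, which all groups received. They were then given 100 nM osimertinib, a covalent inhibitor of mutant epidermal growth factor receptor, 0.5 µM cisplatin, which forms platinum crosslinks in DNA, or vehicle, each for 16 h. Each group had 3 replicates, described in the labels as biological and independent, all from this 1 cell line, and each was hybridised to its own Affymetrix Human Gene 2.0 ST array. Values are log2 levels as deposited, the median over all rows being 3.29 to 3.37 on the 9 arrays. Precision is set by the number of arrays. Tests were run on the 7442 genes whose mean over the arrays was at or above 4.28, and a gene is called where its adjusted p was below 0.05 by limma with Benjamini-Hochberg adjustment over those genes. The words rose and fell are kept for such genes.

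In macrophages these genes serve tissue remodelling. Interstitial collagenase opens fibrillar collagen, the TIMPs bind active metalloproteinases, and thrombospondin-1 and osteopontin act on adhesion, on migration and on the activation of latent growth factors. Transcription of MMP1 in PMA-treated cells is known to depend on AP-1, the dimer of FOS and JUN proteins, and phorbol ester is a classic inducer of MMP1. Among the 11 macrophage markers 7 were named and 6 of these lay above the level limit, with CD68 at 9.74, 9.95 and 9.44 and the receptor CSF1R at 8.86, 9.07 and 8.57 (group means for osimertinib, cisplatin and vehicle). The lysozyme gene LYZ was below the limit in every group (3.31, 3.34 and 3.12). The mean level of the 7 markers was 6.44 to 6.60 on osimertinib arrays, 6.48 to 6.69 on cisplatin arrays and 6.36 to 6.44 on vehicle arrays, and the part of that difference in the results was not tested. None of the 3 named fibroblast markers or the 2 named T cell markers reached the limit. Above it lay 2 of 5 named epithelial markers, 1 of 3 endothelial and 1 of 5 myeloid precursor markers. The keratin gene KRT18 was at 7.40, 7.36 and 7.71 in group means and fell by 0.30 with osimertinib and fell by 0.35 with cisplatin. Both KRT18 calls ended when its rows were averaged (adjusted p = 0.342 and 0.251 by limma) and without vehicle replicate 2 (0.15 and 0.0782). The osimertinib call also ended without osimertinib replicate 1 (0.12) or vehicle replicate 1 (0.0638), and the cisplatin call without cisplatin replicate 2 (0.0656). Quantile normalization, median centring, no level limit, and no trend and robust steps each ended the osimertinib call as well (0.0585 to 0.0781). KRT8 (4.71, 4.76 and 4.49), the endothelial PECAM1 (log2 differences of 0.33 with osimertinib and 0.15 with cisplatin) and the granule protein gene AZU1 (4.59, 4.68 and 4.45) were not called. The part of these markers in the results was not tested. Fewer cells of a type and less RNA per cell cannot be told apart in these bulk samples.

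Upstream sequence was at hand for TIMP1, THBS1 and SPP1 (RefSeq, GRCh38.p14, plus strand, the 250 bases before the gene start). The stretches of THBS1, which fell with both drugs, and TIMP1, which differed between the drugs, are printed. Each holds a match to 1 of the motifs below. SPP1 also differed between the drugs, but its stretch holds no match to any of them and is not printed. The stretches are chr15:39580829-39581078 for THBS1 and chrX:47582186-47582435 for TIMP1. Capitals mark matches to 3 motifs searched on both strands: TGANTCA, the site of AP-1, TGAGTAA, its variant described for TIMP1, and GCGNGGGCG, the site of the early growth response factor EGR1. TGAGTAA and GCGNGGGCG were chosen after the sequences were seen.
THBS1: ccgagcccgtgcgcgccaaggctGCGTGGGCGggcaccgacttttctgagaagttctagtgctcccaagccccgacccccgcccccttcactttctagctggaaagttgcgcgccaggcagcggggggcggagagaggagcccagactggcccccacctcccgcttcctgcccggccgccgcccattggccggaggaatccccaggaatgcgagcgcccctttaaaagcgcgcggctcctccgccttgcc
TIMP1: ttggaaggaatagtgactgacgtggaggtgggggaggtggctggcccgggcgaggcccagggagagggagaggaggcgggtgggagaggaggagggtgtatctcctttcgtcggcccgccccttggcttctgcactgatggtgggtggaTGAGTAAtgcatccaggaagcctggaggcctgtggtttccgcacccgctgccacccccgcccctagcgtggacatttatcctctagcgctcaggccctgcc
The THBS1 match lies 227 to 219 bases before the start, and the TIMP1 match 101 to 95 bases before it. TGANTCA matched none of the 3 sequences and 6.57% of all 35116 RefSeq promoters of this length. TGAGTAA was present in 2.21% of them, and GCGNGGGCG in 8.41%. The marked motifs do not overlap each other, and a match is a description of letters, not a site shown to be bound.

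MMP1 encodes interstitial collagenase, the enzyme that makes the opening cut in fibrillar collagens of types I, II and III. Its log2 level was 4.14, 3.87 and 3.51 on the osimertinib arrays, 4.83, 5.48 and 5.25 on the cisplatin arrays, and 5.13, 4.97 and 5.06 on the vehicle arrays. All 3 osimertinib arrays lay below all the others, by at least 0.686 log2 units, while the cisplatin and vehicle arrays overlapped. The group means were 3.84 ± 0.31 with osimertinib, 5.18 ± 0.33 with cisplatin and 5.05 ± 0.078 with vehicle (SD, n = 3 each). MMP1 thus fell with osimertinib by 1.21 log2 units against vehicle, 2.32-fold (SE 0.17, 95% interval -1.59 to -0.84). Cisplatin and vehicle differed by 0.13 (95% interval -0.24 to 0.50), which was not called. Directly between the drugs MMP1 was 2.54-fold lower with osimertinib than with cisplatin (log2 difference -1.34, 95% interval -1.72 to -0.97). When the 7442 genes are put in order of that difference from the lowest, MMP1 takes place 2. The osimertinib mean is below the level limit of 4.28, so MMP1 entered the test through the other groups. Detection calls were not given for these arrays, and a fold at so dim a level may be too small.

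MMP19 encodes a metalloproteinase that cuts basement membrane proteins such as laminin and nidogen. Its log2 level was 7.21, 7.10 and 7.27 with osimertinib, 7.98, 8.15 and 8.13 with cisplatin, and 7.50, 7.52 and 7.53 with vehicle. The 3 groups did not overlap (such separation from vehicle held for 44.1% of tested genes with osimertinib and 42.3% with cisplatin): cisplatin was highest, vehicle lay between and osimertinib was lowest. The 3 vehicle arrays spanned only 0.025 log2 units, against 0.17 in either drug group. MMP19 fell with osimertinib by 0.32 (SE 0.07, 95% interval -0.47 to -0.17), or 1.25-fold, and rose with cisplatin by 0.57 (SE 0.07, 95% interval 0.42 to 0.72), or 1.48-fold. The drugs therefore moved it in opposite directions, and the direct difference was -0.89 (95% interval -1.04 to -0.74), 1.85-fold lower with osimertinib. In the same order of genes MMP19 takes place 7 of 7442.

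TIMP1 encodes a secreted inhibitor that blocks most soluble metalloproteinases. Its log2 level was 8.33, 8.10 and 7.97 with osimertinib, 8.45, 8.55 and 8.51 with cisplatin, and 8.21, 8.31 and 8.20 with vehicle. The cisplatin arrays lay above the rest, and osimertinib and vehicle overlapped. TIMP1 rose with cisplatin by 0.26 (SE 0.08, 95% interval 0.09 to 0.43), or 1.20-fold. The difference between osimertinib and vehicle was -0.11 (95% interval -0.28 to 0.06) and was not called, but it was -0.21 and called without osimertinib replicate 1. Between the drugs TIMP1 was lower with osimertinib by a log2 difference of -0.37 (95% interval -0.54 to -0.20). The cisplatin call ended without cisplatin replicate 2 (adjusted p = 0.079 by limma) or 3 (0.0648), or without vehicle replicate 1 (0.071) or 3 (0.0846). The direct call ended without osimertinib replicate 2 (adjusted p = 0.131 by limma) or 3 (0.124), or without cisplatin replicate 2 or 3 (each 0.118), and both calls ended without a level limit or without the trend and robust steps of the fit.

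TIMP2 encodes the inhibitor that, besides blocking metalloproteinases, helps the membrane protease MMP14 to activate pro-MMP2. Its log2 level was 7.98, 8.14 and 8.11 with osimertinib, 7.80, 7.82 and 7.92 with cisplatin, and 7.64, 7.52 and 7.70 with vehicle. Again the 3 groups did not overlap, this time with osimertinib highest and vehicle lowest. TIMP2 rose with osimertinib by 0.45 (SE 0.071, 95% interval 0.30 to 0.60), or 1.37-fold, and with cisplatin by 0.22 (95% interval 0.07 to 0.37), or 1.17-fold. Between the drugs the difference was 0.23 (95% interval 0.08 to 0.38), which the adjustment over all genes left uncalled. The cisplatin call ended on leaving out cisplatin replicate 2 (adjusted p = 0.0524 by limma) or 3 (0.122) or vehicle replicate 1 (0.0584) or 2 (0.126), and without a level limit or without the trend and robust steps. TIMP2 was the 1 gene of the 6 that rose with osimertinib, where MMP1, MMP19, THBS1 and SPP1 fell.

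THBS1 encodes thrombospondin-1, a trimeric glycoprotein that binds CD36 and CD47 and activates latent TGF-beta. Its log2 level was 4.85, 4.61 and 4.20 with osimertinib, 4.70, 5.04 and 5.21 with cisplatin, and 5.73, 5.88 and 6.04 with vehicle. Every treated array lay below every vehicle array, and the drug groups overlapped with each other. The means were 4.55 ± 0.33 with osimertinib, 4.98 ± 0.26 with cisplatin and 5.88 ± 0.16 with vehicle (SD, n = 3 each). THBS1 fell 2.51-fold with osimertinib (log2 difference -1.33, SE 0.17, 95% interval -1.68 to -0.97) and 1.86-fold with cisplatin (-0.90, SE 0.17, 95% interval -1.26 to -0.54). The direct difference of -0.43 (95% interval -0.79 to -0.07) was not called. Of the 6 genes THBS1 alone fell with both drugs. The EGR1 motif in its upstream stretch was chosen after the sequence was seen and is present in 8.41% of promoters of this length. EGR1 itself was at 7.56 ± 0.072 with osimertinib, 8.00 ± 0.082 with cisplatin and 7.08 ± 0.041 with vehicle (SD, n = 3 each). It rose by 0.48 with osimertinib and by 0.92 with cisplatin. A link between EGR1 and the level of THBS1 was not tested.

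SPP1 encodes osteopontin, a phosphoprotein that binds integrins and CD44 and is a well-known product of macrophages. Its log2 level was 11.29, 11.28 and 11.17 with osimertinib, 11.49, 11.57 and 11.61 with cisplatin, and 11.41, 11.54 and 11.54 with vehicle. The osimertinib arrays lay below all others, and cisplatin and vehicle overlapped. SPP1 fell with osimertinib by 0.25 (SE 0.047, 95% interval -0.35 to -0.15), a change of 1.19-fold. The difference between cisplatin and vehicle was 0.06 (95% interval -0.04 to 0.16) and was not called. Between the drugs SPP1 was lower with osimertinib (log2 difference -0.31, 95% interval -0.41 to -0.21). That call ended without the trend and robust steps of the fit (adjusted p = 0.12 by limma).

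**Figure D1:**
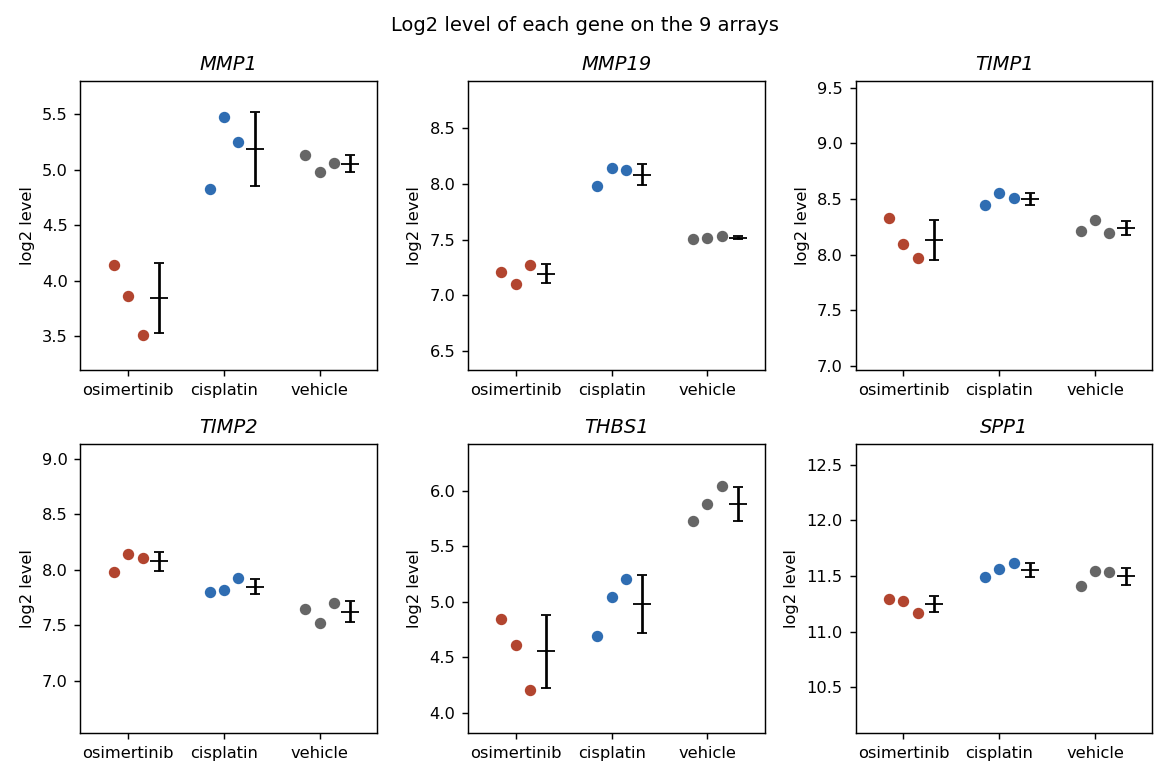
Log2 level (y axis, of equal span in every panel) of the 6 genes on each array, in groups osimertinib, cisplatin and vehicle on the x axis. Points are single arrays, and the bar beside them is the group mean with its SD (n = 3). MMP1 is low on the osimertinib arrays alone, MMP19 is high with cisplatin and low with osimertinib, and THBS1 is low with both drugs.

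Taking the 6 genes as a set, 5 were called with osimertinib against vehicle, 1 higher and 4 lower, where 30.6% of all tested genes were called, 16.9% higher and 13.7% lower. With cisplatin 4 were called, 3 higher and 1 lower, against 31.0% of all tested genes, 16.5% higher and 14.5% lower. Between the drugs 4 were called, MMP1, MMP19, TIMP1 and SPP1, all lower with osimertinib, against 1.75% of all tested genes, 0.766% higher and 0.981% lower. The groups' arrays did not overlap for 5 of the 6 with osimertinib against vehicle, where 44.1% of all tested genes had no overlap. For cisplatin against vehicle this held for 4 of the 6 and 42.3% of tested genes, and between the drugs for 5 of the 6 and 14.3%. These counts follow from how the genes were picked and nothing is read from them. The median log2 difference of the 6 was -0.29 with osimertinib, 0.17 with cisplatin and -0.40 between the drugs, beside 0.037, 0.032 and 0.01 over all tested genes. The comparisons with vehicle share the 3 vehicle arrays.

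**Figure D2:**
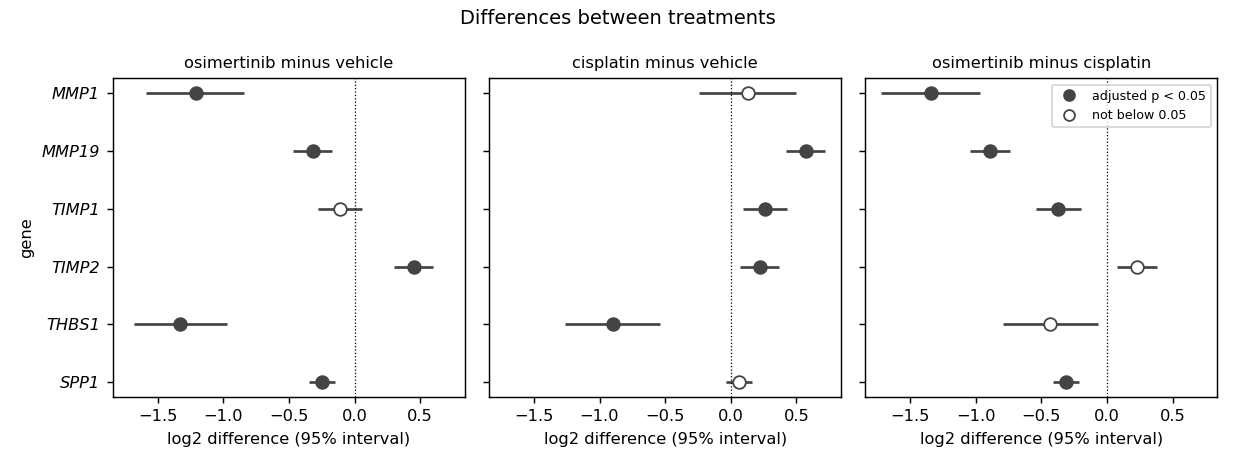
Log2 difference (x axis) of the 6 genes (y axis) for osimertinib minus vehicle, cisplatin minus vehicle and osimertinib minus cisplatin. Lines are 95% intervals, and filled points have an adjusted p below 0.05. In the right panel MMP1 and MMP19 lie farthest to the left, at -1.34 and -0.89.

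The wider set of matrix genes was read from 11 lists of proteases, inhibitors, receptors, matrix proteins and regulators. Apart from the 6 genes the lists hold 155 genes, of which 108 were named on the array and 64 tested. With osimertinib 25 of these 64 were called (39.1%), 18 higher and 7 lower, beside 30.6% of all tested genes. With cisplatin 23 were called (35.9%), 17 higher and 6 lower, beside 31.0%. Between the drugs 1 of 64 was called (1.56%), TFPI2, beside 1.75%. By direction, 16.9% of all tested genes were called higher and 13.7% lower with osimertinib, and 16.5% and 14.5% with cisplatin. A larger part of the list genes than of all tested genes was thus called higher with either drug. The lists were written with earlier results of these data known, so this is not read as a result about matrix genes. Counts within the single lists below stand beside the same shares. The median log2 difference over the 64 was 0.04 with osimertinib, 0.05 with cisplatin and -0.02 between the drugs, close to the values over all tested genes.

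Among the 23 matrix metalloproteinases 19 were named and 7 tested, and besides MMP1 and MMP19 none was called in any comparison. MMP14, the membrane-bound protease that activates pro-MMP2, stood at 10.71, 10.72 and 10.75 (group means with osimertinib, cisplatin and vehicle). MMP17 had log2 differences of -0.29 with osimertinib and -0.26 with cisplatin, MMP24 of 0.07 and 0.22, MMP15 of 0.17 and 0.17, and MMP25 of -0.05 and 0.06. The other 12 named metalloproteinases were below the level limit, and MMP2, MMP3, MMP7 and MMP9 were not analysed here. Of the inhibitors 6 of 7 were tested. TIMP3, the inhibitor that stays bound to the matrix, fell with cisplatin by 0.18 with its brightest row. That call ended when all its rows were averaged (adjusted p = 0.652 by limma). It also ended with arrays centred on the median (0.0841) and without the trend and robust steps of the fit (0.0939). A2M, the broad plasma protease trap alpha-2-macroglobulin, fell with osimertinib by 0.14. That call ended without osimertinib replicate 3 (adjusted p = 0.0861 by limma) or vehicle replicate 2 (0.0892). It also ended with arrays centred on the median (0.261) and without the trend and robust steps of the fit (0.158). RECK, a membrane-anchored inhibitor, had differences of -0.36 with osimertinib and -0.20 with cisplatin, neither called.

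Of 8 tested cathepsins and cystatins 4 rose and 1 fell with osimertinib, where 16.9% of all tested genes were called higher and 13.7% lower. With cisplatin 5 rose and 1 fell, where 16.5% were called higher and 14.5% lower. The lysosomal exopeptidase CTSZ was at 7.63, 7.71 and 7.63 with osimertinib and 7.53, 7.66 and 7.66 with cisplatin, against 6.54, 6.67 and 6.67 with vehicle. It rose by 1.03 with osimertinib and 0.99 with cisplatin, and the elastin-cleaving CTSS by 0.37 and 0.35. CTSD rose by 0.25 and 0.27, and CTSL by 0.42 with cisplatin, while its difference with osimertinib was 0.09. CTSK, a collagenase of osteoclasts, fell by 0.79 with osimertinib and fell by 0.67 with cisplatin. The cystatin CSTB rose by 0.30 and 0.29; the osimertinib call ended without osimertinib replicate 1 (adjusted p = 0.06 by limma) or vehicle replicate 1 (0.0563) or 3 (0.0595), and the cisplatin call without cisplatin replicate 2 (0.0572) or vehicle replicate 1 (0.0626) or 3 (0.0678). Of 6 tested ADAM proteases ADAM9 (0.20) and ADAM10 (0.18), which shed membrane proteins, rose with osimertinib and 0 were called with cisplatin by limma. Over all tested genes 30.6% were called with osimertinib and 31.0% with cisplatin, so nothing is read from these counts. The ADAM9 call ended without osimertinib replicate 1 (adjusted p = 0.0869 by limma) or vehicle replicate 2 (0.086). The ADAM10 call ended without osimertinib replicate 1 (0.0878) or 2 (0.0856) or vehicle replicate 1 or 3 (each 0.0793). Both ended without the trend and robust steps of the fit (0.0874 for ADAM9 and 0.1 for ADAM10). Only ANXA2 was tested of the 9 plasminogen system genes, at -0.20 and -0.27, and it was not called.

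Receptors of thrombospondin-1 and osteopontin changed in both directions. CD47, which binds thrombospondin-1 and is also the don't-eat-me signal of phagocytosis, fell by 0.60 with osimertinib and fell by 0.54 with cisplatin. The scavenger receptor CD36 fell by 0.26 with cisplatin, and its difference with osimertinib was -0.07. LRP1, an endocytic receptor that clears thrombospondin-1 and protease complexes, rose by 0.63 and 0.52, and the heparan sulfate proteoglycan SDC4 by 0.43 and 0.58. CD44, the hyaluronan and osteopontin receptor, had differences of 0.00 with osimertinib and -0.05 with cisplatin and was not called. Of the 15 receptors 7 were named, and the integrins of that list were not analysed here.

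Of the matricellular list 7 of 24 were tested. DSPP, a phosphoprotein of the same gene family as SPP1 known from dentin, was at 3.32, 3.38 and 3.98 with osimertinib and 4.35, 3.98 and 3.89 with cisplatin, against 5.58, 5.47 and 5.59 with vehicle. It fell by 1.99 with osimertinib and fell by 1.47 with cisplatin, and both drug means are below the level limit of 4.28, so DSPP entered the test through the vehicle arrays. THBS2, the closest relative of THBS1, had differences of -0.26 with osimertinib and -0.05 with cisplatin and was not called. CCN4, a secreted target of Wnt signalling, rose by 0.33 and 0.35. The osimertinib call of CCN4 ended without any 1 of the osimertinib replicates or vehicle replicate 1 or 3 (adjusted p = 0.0524 to 0.159 by limma), and the cisplatin call without any 1 of the cisplatin replicates or vehicle replicate 1 or 3 (0.0632 to 0.129). GPNMB, a glycoprotein of macrophages, fell with cisplatin by 0.22. That call ended without any 1 of the cisplatin replicates or vehicle replicate 2 or 3 (adjusted p = 0.0602 to 0.152 by limma). Among structural genes FN1, fibronectin, rose by 0.64 with osimertinib and 0.79 with cisplatin, and HSPG2, perlecan, by 0.39 and 0.46, out of 4 tested.

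Of 7 tested activators and partners of metalloproteinases, BSG (0.24 with osimertinib), an inducer of metalloproteinases on neighbouring cells, and the TIMP1-binding tetraspanin CD63 (0.31 with either drug) rose. TFPI2, a matrix-bound inhibitor of serine proteases such as plasmin, was at 5.21, 4.58 and 4.68 with osimertinib and 5.54, 5.57 and 5.53 with cisplatin, against 5.53, 5.85 and 6.06 with vehicle. It fell with osimertinib by 0.99, while its difference with cisplatin was -0.27, not called. Its direct difference was -0.72 (adjusted p = 0.0396 by limma), which was lost on leaving out osimertinib replicate 2 or 3 or any 1 of the cisplatin replicates (0.0975 to 0.163). The proprotein convertase PCSK6 fell with osimertinib by 0.26, a call that ended without any 1 of the osimertinib replicates or vehicle replicate 2 or 3 (0.0642 to 0.137). FURIN, which activates membrane-type metalloproteinases, had differences of 0.20 and 0.23, not called.

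Of 11 tested AP-1 and ETS factors, which bind the promoters of collagenase genes, 3 rose and 1 fell with osimertinib, and 5 rose and 0 fell with cisplatin, beside 30.6% and 31.0% of all tested genes called with each drug in either direction. JUN was at 9.91, 10.03 and 9.87 with osimertinib and 9.86, 9.96 and 10.05 with cisplatin, against 8.56, 8.73 and 8.35 with vehicle. It rose by 1.39 with osimertinib and 1.41 with cisplatin, FOS by 0.85 and 0.84, and JUNB by 0.58 and 0.67. FOSB had differences of -0.23 with osimertinib and -0.05 with cisplatin, and JUND of 0.11 and -0.16, none called. MMP1 fell by 1.21 with osimertinib and was not called with cisplatin. The part of these factors in the level of MMP1 was not tested. FOSL2 (0.55) and ETS2 (0.41) rose with cisplatin, and their differences with osimertinib were 0.26 and 0.17. FOSL1 had differences of -0.18 with osimertinib, 0.24 with cisplatin and -0.42 between the drugs (adjusted p = 0.082 by limma), none called. The difference between the drugs was called in 3 of 14 alternative settings (adjusted p down to 0.0131 by limma). ETS1 fell with osimertinib by 0.20, a call that ended without any 1 of the osimertinib or vehicle replicates (0.059 to 0.199). It also ended with arrays centred on the median (0.221), without a level limit (0.0904) and without the trend and robust steps (0.105). The phosphatase gene DUSP1, which shuts off MAP kinases, rose by 1.96 with osimertinib and 2.09 with cisplatin. Of 6 tested TGF-beta genes the inhibitor SMAD7 rose by 0.95 and 1.01, and the signal carrier SMAD2 by 0.32 with osimertinib, a call that ended without osimertinib replicate 1 (0.073) or vehicle replicate 2 (0.0547).

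**Figure D3:**
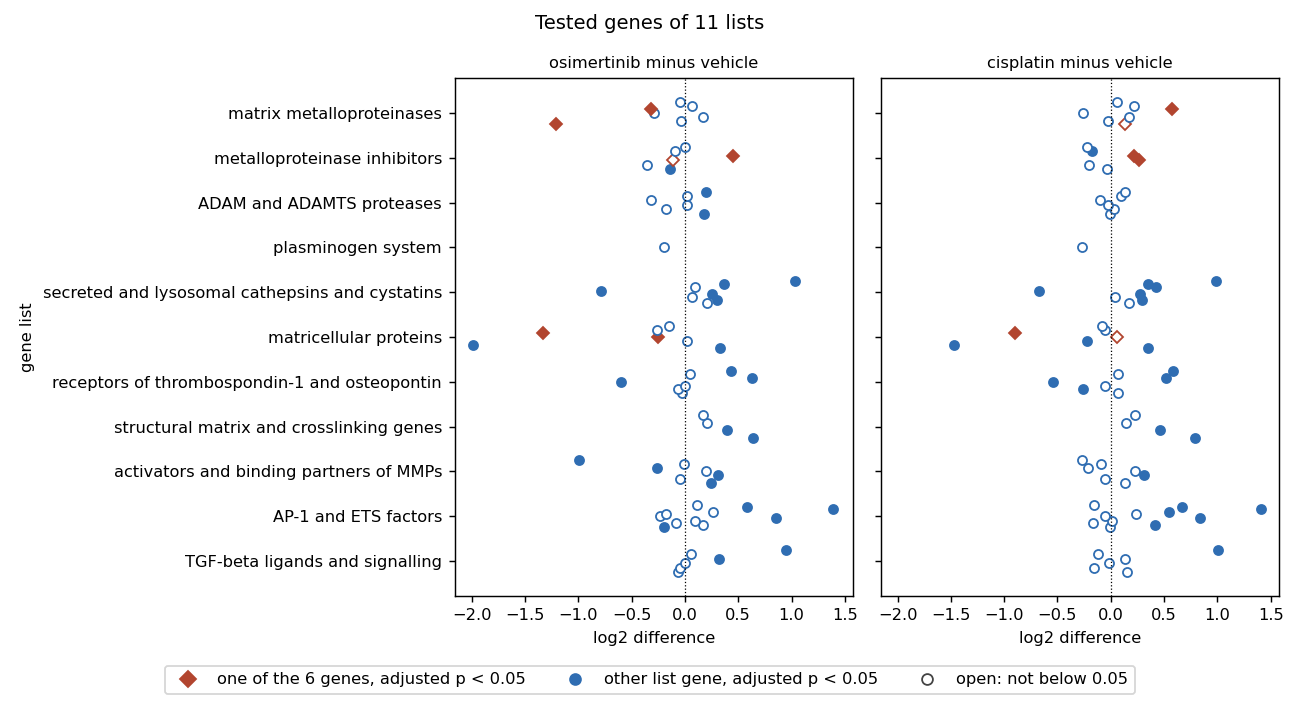
Log2 difference (x axis) of every tested gene of the 11 lists (y axis), for osimertinib minus vehicle on the left and cisplatin minus vehicle on the right. Diamonds are the 6 genes described here and circles other genes; filled symbols have an adjusted p below 0.05. MMP1 stands apart from the other metalloproteinases on the left at -1.21 and sits among them on the right at 0.13.

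**Figure D4:**
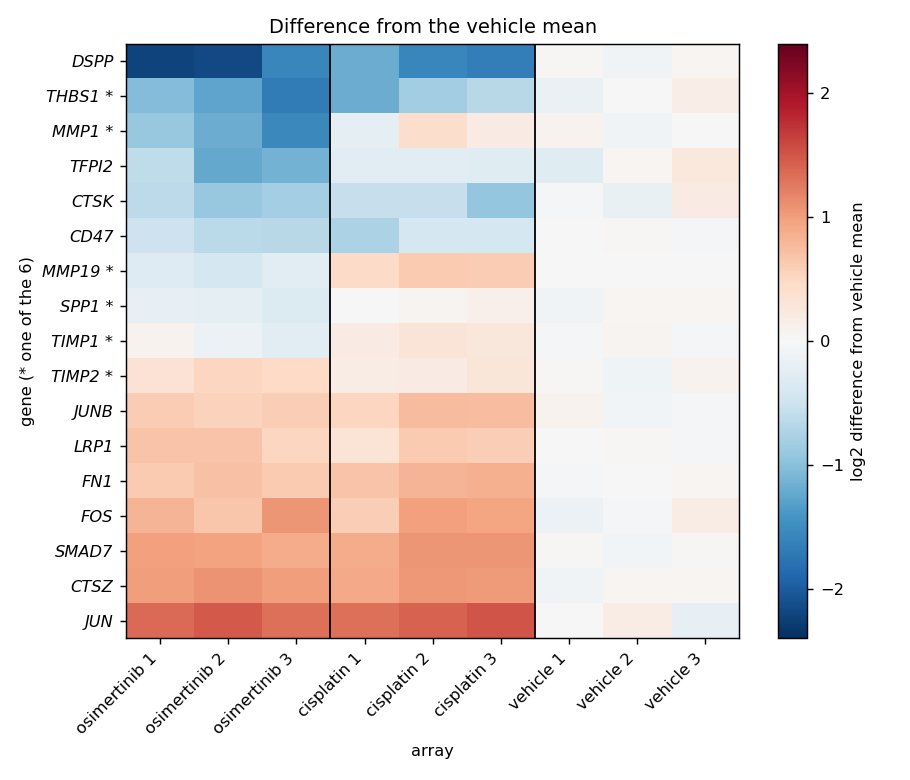
Log2 difference from the vehicle mean (colour) for the 6 genes, marked with a star, and for the list genes called with at least a 1.5-fold change in any comparison, on each of the 9 arrays (columns). Rows are ordered by the osimertinib mean, from DSPP at the top to JUN at the bottom, MMP19 changes colour between the drug groups, and MMP1 is lowest on the 3 osimertinib arrays.

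As a description, the genes whose levels ran closest to each of the 6 over the 9 arrays were sought among tested protein-coding genes. These correlations largely repeat the differences between the 3 groups and carry no test. MMP1 ran closest to NRIP3 (r = 0.968), VAT1L (0.958) and CNIH3 (0.957). MMP19 ran closest to PRF1 (0.962), the pore-forming perforin, S100A9 (0.957), a calprotectin subunit, and EAF1 (0.926). For TIMP1 they were UGDH (0.963), TFPI (0.935), the tissue factor pathway inhibitor, and ARHGAP31 (0.934), and for TIMP2 SUZ12 (0.981), COA6 (0.973) and AHNAK (0.970). THBS1 was followed by NUP98 (0.988), MCOLN1 (0.980) and DNAAF9 (0.976), and 207 genes had r above 0.9 with it, against 11 to 37 for the other members. SPP1 was followed by the MAP kinase inhibitor SPRY4 (0.962), PNP (0.957) and SIAE (0.952).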

How the data were processed

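The authors deposited 1 log2 value per array row for 9 arrays. Per the labels, the raw scans went through a provider's standard Affymetrix pipeline to gene-level values. The submitters' processing notes name Affymetrix Power Tools. For background correction, summarization and log base, the method is not given in the sources used here. Base and scale were read from the values (0.65 to 13.17). The platform annotation names 16098 of 53617 rows, each with 1 gene, and leaves 37519 unnamed; all 16098 Entrez identifiers matched RefSeq (GRCh38.p14). For the 779 genes with several rows the brightest was taken. One linear model with 3 group means over 9 arrays (6 residual degrees of freedom) was fitted with limma 3.58.1 in R 4.3.3, with trend and robust steps, two-sided, and tested on simulated data. Of the tested genes, 207 had 3 equal values in a group, which makes their spread look too small; none of the 6 genes had any. The arrays were already normalized to each other, so a shift of most transcripts would not be seen. The 6 genes and the gene lists were chosen with earlier results of these data known. Named genes are the 6, up to 4 per list with the smallest p against vehicle, the 3 closest in pattern to each of the 6, 6 fixed genes including DUSP1 and EGR1, and those that make up small counts. Replicate numbers did not pair the arrays (correlation of deviations -0.227 to 0.126). Alternatives covered row choice, level limit, normalization, variance model, replicate block, samples fitted and each array left out.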

Additional observations from a re-analysis of the deposited data

Results flagged for a closer look

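The 6 genes were picked by their measured differences in these data, so what follows is a description and not independent evidence. Where 1.75% of all 7442 tested genes were called between the drugs by limma, 4 of these 6 were. These are MMP1 (log2 difference, osimertinib minus cisplatin, -1.34), MMP19 (-0.89), TIMP1 (-0.37) and SPP1 (-0.31). For MMP19 the drug arrays lay on opposite sides of vehicle, below it with osimertinib and above it with cisplatin. The TIMP1 difference is the one that leaving out single arrays ended. Without the trend and robust steps of the fit, neither TIMP1 nor SPP1 was called (adjusted p = 0.125 and 0.12 by limma). MMP1 entered the test through the cisplatin and vehicle groups, its osimertinib mean being below the level limit.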

How the results depend on the processing

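Of the 13 called differences of the 6 genes, 9 kept direction and call under every alternative run, as did 2 of the 5 uncalled ones in direction and side of the threshold. TIMP1 with cisplatin stayed at 0.26 without a level limit (adjusted p = 0.0529 by limma) and without trend and robust fitting (0.0626), and TIMP2 with cisplatin at 0.22 (0.055 and 0.0674), none called. On leaving out single arrays they ranged from 0.24 to 0.30 and from 0.17 to 0.26. TIMP1 between the drugs was not called at -0.37 without a level limit (0.0992), without trend and robust fitting (0.125) and with only the 2 groups compared (0.105), nor at -0.34 with arrays centred on the median (0.0915), and ranged from -0.47 to -0.29 without single arrays. SPP1 between the drugs was not called at -0.31 without trend and robust fitting (0.12). The uncalled difference of SPP1 with cisplatin turned to -0.0014 with quantile normalization on top, that of MMP1 with cisplatin ran from -0.02 (without cisplatin replicate 2) to 0.31, and that of TIMP1 with osimertinib from -0.21 to -0.03 without single arrays. MMP1 and THBS1 are not among the 4962 genes tested with a higher level limit. Among the other list genes, the calls of CCN4, GPNMB, PCSK6 and the direct call of TFPI2 also ended under some settings besides left-out arrays. Some uncalled list and marker genes were called under a few alternatives. Examples are FURIN with cisplatin in 4 of 14, and PECAM1 with osimertinib and FOSL1 between the drugs in 3 of 14 each.

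The count of genes called between the drugs was 130, and 76 without a level limit, 217 with quantile normalization, 85 with median centring (48 higher and 37 lower, against 57 and 73), 63 without trend and robust fitting, 77 with only the 2 groups compared and 54 to 147 without single arrays. Of the other list genes 1 was called between the drugs by limma, and 0 without a level limit, with median centring, without trend and robust fitting, with the replicate block and with only the 2 groups compared, 2 with the higher level limit, 4 with quantile normalization and 0 to 2 without single arrays. Quantile normalization gave 2004 higher and 932 lower with osimertinib, against 1255 and 1022, and 1968 and 974 with cisplatin, against 1227 and 1081, and moved the median of all tested genes to 0.11 in both. Median centring gave 1536 and 734 with osimertinib. With the replicate block, 2145, 2155 and 108 genes were called for osimertinib, cisplatin and the direct comparison, and no call of the 6 genes changed. The replicates share a number but were not shown to be paired. The cause of these changes was not tested.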

Other observations

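SPP1 lies at the end of a run of 5 neighbouring protein-coding genes on chromosome 4, DSPP, DMP1, IBSP, MEPE and SPP1 in the order of RefSeq, which encode integrin-binding phosphoproteins known from bone and teeth. DMP1, a phosphoprotein of dentin and bone, is below the level limit and was read from the fit without a limit. It stood at 3.09, 3.00 and 2.67 with osimertinib and 3.40, 3.45 and 3.44 with cisplatin, against 5.13, 4.93 and 5.37 with vehicle. It was lower by a log2 difference of -2.22 (SE 0.14) with osimertinib and -1.71 (SE 0.14) with cisplatin, both called by limma. The drug levels lie near or below the median over all rows, 3.29 to 3.37 on the arrays, and detection calls were not given. The size of these differences is therefore uncertain and, as for MMP1, may be too small. The neighbouring DSPP, which passed the level limit only through its vehicle arrays, had -1.99 and -1.47, and SPP1 had -0.25 and 0.06. These values are given side by side as a description, with no pattern among the neighbours drawn from them. IBSP (-0.15 and -0.08) and MEPE (-0.24 and -0.01) were near the bottom of the scale at group means of 1.76 to 2.75 and were not called.

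Of 44 named list genes below the level limit, 3 were called with osimertinib and 3 with cisplatin in that fit, where 14.8% and 14.7% of all 14884 genes were called, and 0 between the drugs. Those percentages cover genes above and below the limit together, and the share among genes below it alone was not counted, so the counts are not compared. The called genes were picked out after their values were seen. Besides DMP1 they were MMP23B (0.50, adjusted p = 0.0445 by limma) and SPARCL1 (-0.47, 0.0178) with osimertinib. With cisplatin they were, besides DMP1, CCN3 (0.54, 0.00919) and LTBP1 (-0.42, 0.047). The MMP23B and LTBP1 calls lie at the edge of the threshold, and how they hold without single arrays is not given here. The neutrophil collagenase MMP8 had group means of 3.32 with osimertinib, 4.22 with cisplatin and 3.64 with vehicle and was not called in any comparison.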
